A study of Arabidopsis thaliana with 5 samples.

Results

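The 9 genes described here carry the cytokinin signal from the cell membrane to the nucleus: the 3 cytokinin receptors HK2, HK3 and WOL (also called AHK4), and the 6 histidine phosphotransfer proteins AHP1 to AHP6. They were found by locus among the array's non-control probes, and all 9 had at least 1 probe, of 25433 genes with a named probe. Transcripts were measured in cotyledons, the seed leaves, of 7-day-old Arabidopsis thaliana seedlings grown in days of 16 h light and 8 h dark. The groups were 3 samples of the mutant line ckg and 2 samples of the wild type Col-0, described as biological replicates and hybridised 1 to an array in a single colour. A genotype label of the mutant samples reads "cgr" where the titles read ckg; from outside knowledge, the line was taken to be mutated in CYTOKININ-RESPONSIVE GROWTH REGULATOR, or CKG, a transcription factor of the basic helix-loop-helix family (locus AT5G50915). The kind of lesion, the number of alleles and the number of seedlings behind each sample are not given in the sources used here.

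Cytokinins are adenine-derived hormones that promote cell division and shoot growth. The receptors are histidine kinases whose outer domain binds the hormone; they then pass a phosphate to a phosphotransfer protein, which moves it to response regulators in the nucleus. Type-B regulators switch on target genes, and type-A regulators, themselves among those targets, damp the signal. AHP6 is the exception in its family, because it lacks the histidine that accepts the phosphate and so works as an inhibitor.

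Across the arrays, 66.7% to 70.0% of non-control spots were well above background on ckg replicates 1 and 2 and on both Col-0 arrays, against 52.4% on ckg replicate 3. All ckg arrays lay on slide 2 and both Col-0 arrays on slide 1, and the effects of slide and of genotype cannot be told apart below. Levels are given as processed signal and as scaled log2 signal, on which 0 is the array's 75th percentile. Brightness also depends on the probe, so levels are compared between arrays and not between genes. Over 18122 genes tested, 0 passed an adjusted p of 0.05 in limma (0%), and 3283 (18.1%) had an unadjusted p under 0.05. CKG itself had processed signals of 6.46, 16.5 and 51.3 in ckg, on no array above background, against 1070 and 962 in Col-0. That places CKG at least 29.6-fold lower in ckg (limma adjusted p = 0.103).

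The tissue label was set against marker genes. All 5 green tissue markers were well above background on 5 arrays. Of 6 shoot apex markers, 5 (STM, WUS, CLV3, KNAT1 and CUC1) were above background on no array, and 0 of the 6 could be tested. Of 6 root markers, 3 (RHD6, PLT1 and EXPA7) were above background on no array. COBL9 and CASP2 were well above background on 2 of 3 ckg arrays and on both Col-0 arrays. CASP1 was so on Col-0 replicate 2 alone. COBL9 and CASP2 entered the test, at log2 differences of 0.29 and 0.25 (limma adjusted p = 0.428 and 0.509). Vascular markers, which bear on WOL and AHP6 because both genes act in vascular tissue, were well above background on all 5 arrays for 7 of 10. Their scaled levels, summed on a linear scale, ran from 20.1 to 28.8 in ckg and from 28.5 to 30.9 in Col-0, with the lowest on ckg replicate 3. Most of each sum came from 1 gene, SUC2, at scaled log2 levels of 3.78 to 4.36 in ckg and 4.33 to 4.44 in Col-0. The median difference of the 10 markers was -0.32, against -0.0097 over all genes tested, with 7 lower and 3 higher in ckg. Every ckg array was below both Col-0 arrays for 4 (40%), as for 22.7% of all genes. Of the 10 markers, 2, the xylem genes XCP1 and MYB46, were lower at an unadjusted limma p under 0.05, as were 9.81% of all genes. MYB46, VND6 and VND7 were each dim on 1 ckg array and entered the test only through Col-0, where they were higher. In whole cotyledons, fewer cells of a type and less RNA per cell cannot be told apart. The part of vascular content in the values below was not tested.

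No tested receptor or phosphotransfer gene passed the threshold between ckg and Col-0, and neither did any other gene tested, CKG included. Of the 9 genes, 7 were well above background on every array and entered the test. Of these 7, 0 passed an adjusted p of 0.05 in limma, as did 0 of all 18122 genes tested (0%). An unadjusted limma p under 0.05 was found for 0 of the 7, where 18.1% of all genes had one (8.3% higher and 9.81% lower in ckg). All 3 receptors lay slightly higher in ckg and 3 of 4 tested phosphotransfer genes slightly lower, with log2 differences between -0.23 and 0.31. The median difference was 0.11 over the 7 genes, 0.13 over the receptors and -0.17 over the 4 phosphotransfer genes, against -0.0097 over all genes tested. The arrays of the genotypes did not overlap for 5 of the 7 genes (71.4%), a separation found in 42.2% of all genes tested. HK3 and AHP1 were above Col-0 on every ckg array, as were 19.5% of all genes, and AHP2, AHP3 and AHP5 below, as were 22.7%.

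**Figure D1:**
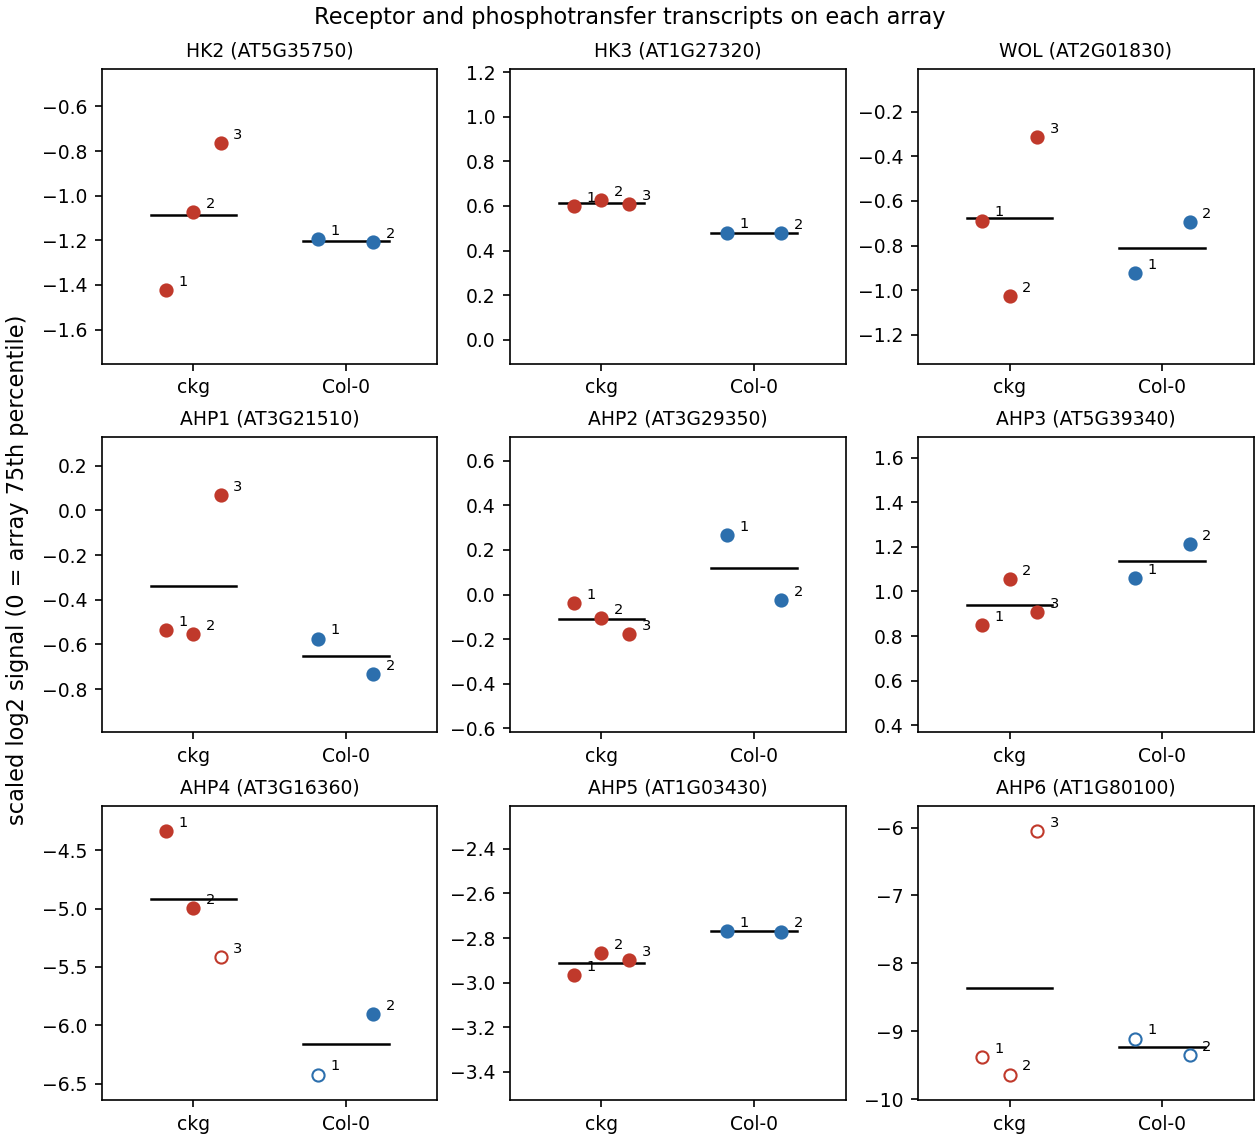
Scaled log2 signal of the 9 genes on each array (y axis, 0 is the array's 75th percentile), 3 ckg arrays left and 2 Col-0 arrays right, numbered by replicate. Filled points were well above background, open points were not, and bars are group means. The y range differs between panels. The highest array is ckg replicate 3 for HK2, WOL and AHP1, and also for AHP6, which was above background on no array.

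HK3, a receptor with a large part in leaf growth and in delaying leaf senescence, gave the steadiest values. Its processed signals were 3729, 4029 and 3387 in ckg, against 3508 and 2979 in Col-0. After scaling, the levels were 0.60, 0.62 and 0.61 in ckg and 0.48 and 0.48 in Col-0, so every ckg array lay above both Col-0 arrays by a small step. The difference was 0.13 ± 0.09 (log2, SE), with limma adjusted p = 0.498. That is 1.09-fold, with a 95% interval of 0.927 to 1.29-fold. The SE exceeds the spread of these arrays, 0.013 in ckg and 0.00054 in Col-0 (SD, n = 3 and n = 2), because limma draws each gene's spread towards that of all genes. The other HK3 probe gave 0.21, 0.34 and 0.18 in ckg, against 0.10 and 0.22 in Col-0. These values overlap, and the difference was 0.08 ± 0.12 (SE).

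HK2, which acts together with HK3 in shoots, had processed signals of 918, 1241 and 1309 in ckg, against 1097 and 925 in Col-0. Its scaled levels were -1.42, -1.07 and -0.76 in ckg, on both sides of the Col-0 arrays at -1.20 and -1.21. The difference of 0.11 ± 0.21 (log2, SE; limma adjusted p = 0.794) was smaller than its error, and the 95% interval ran from 0.750 to 1.56-fold. Without ckg replicate 3 the difference was -0.05. The local background beside the HK2 spot read 94.5 on that array, against 31 and 34.5 on the other ckg arrays and 29 and 34 on the Col-0 arrays. Its part in the HK2 value was not tested.

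WOL is the receptor best known from the root, where it is needed for the cell divisions that build the vascular cylinder, and it can also remove phosphate from phosphotransfer proteins when no hormone is bound. Its signals were 1529, 1283 and 1786 in ckg and 1327 and 1318 in Col-0. The scaled levels of -0.69, -1.03 and -0.31 in ckg enclosed those of Col-0, -0.92 and -0.70. The difference was 0.13 ± 0.23 (log2, SE; limma adjusted p = 0.783), with a 95% interval of 0.731 to 1.64-fold, and it became -0.05 without ckg replicate 3. Here too the local background was highest on ckg replicate 3, at 49.5, against 31 to 38 on the other arrays. Its part in the WOL value was not tested.

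The dimmer WOL probe showed how much 1 spot can weigh in this design. It read 315, 261 and 322 in ckg, against 48.5 and 352 in Col-0. The signal of 48.5 on Col-0 replicate 1 stood apart from the other 4, and the raw median intensity of that spot was low as well, at 106 against 321 to 439 elsewhere. The spot was not marked as an outlier by the scanner software. The probe's difference of 1.12 ± 0.90 (log2, SE) therefore had a 95% interval from -1.15 to 3.40, and the mean of both WOL probes gave 0.63.

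AHP1 showed the largest difference among the 7 tested genes, and most of it came from 1 array. AHP1 is one of the phosphotransfer proteins that relay the signal positively. Processed signals were 1698, 1781 and 2327 in ckg and 1689 and 1285 in Col-0. The scaled levels were -0.54, -0.55 and 0.07 in ckg, against -0.57 and -0.73 in Col-0: ckg replicate 3 was high, and the other ckg arrays lay just above Col-0. The difference of 0.31 ± 0.23 (log2, SE; limma adjusted p = 0.494) had a 95% interval of 0.837 to 1.85-fold, and it was 0.11 without ckg replicate 3.

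The local background beside that AHP1 spot read 121 on ckg replicate 3, against 28.5 to 36 on the other arrays. The other AHP1 probe lay where the local background was even, 34 on ckg replicate 3 against 36 to 38 elsewhere. It too was highest on ckg replicate 3, with 387, 415 and 447 in ckg and 390 and 281 in Col-0. Its difference was 0.26 ± 0.17 (log2, SE), close to that of the brighter probe. The part of the local background in the AHP1 values was not tested.

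AHP2, AHP3 and AHP5, which act redundantly with one another as positive relays, all lay lower in ckg, and in each every ckg array was below both Col-0 arrays. How far each probe tells these related genes apart was not tested, as no probe sequences were used. AHP2 had processed signals of 2398, 2427 and 1962 in ckg, against 3025 and 2099 in Col-0. The scaled levels were -0.04, -0.11 and -0.18 in ckg, closely grouped, and 0.27 and -0.03 in Col-0. The difference of -0.23 ± 0.13 (log2, SE; limma adjusted p = 0.407) corresponds to 0.853-fold, with a 95% interval of 0.678 to 1.07-fold. It was -0.08 without Col-0 replicate 1, the brightest array for this gene. With values made from raw median intensities it was larger: -0.41 after normexp (limma adjusted p = 0.130) and -0.42 in the authors' deposited series table (limma adjusted p = 0.180).

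AHP3 changed direction with the way a spot was read. On processed signals it had 4439, 5427 and 4168 in ckg and 5245 and 4945 in Col-0. Scaled levels were 0.85, 1.05 and 0.91 in ckg, against 1.06 and 1.21 in Col-0, a difference of -0.20 ± 0.12 (log2, SE; limma adjusted p = 0.428; 95% interval 0.707 to 1.08-fold). On raw median intensities the same spots read 4668, 5526 and 4264 in ckg, against 4372 and 2920 in Col-0. The difference was then 0.35 after normexp and 0.34 in the authors' series table.

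The disagreement lay mainly on Col-0 replicate 2, where the AHP3 spot's processed signal was 1.69 times its raw median. For probes above background on every array with a mean raw median over 1000, that ratio had a median of 0.937 and a 95th percentile of 1.56 on the same array. The other AHP3 probe had ratios of 0.825 to 0.891 over the 5 arrays and read 2305, 2767 and 2159 in ckg, against 2470 and 2103 in Col-0. Its difference was 0.0068 ± 0.12 (log2, SE), so the probes did not share a direction.

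AHP5 was measured at 315, 358 and 298 in ckg and at 369 and 313 in Col-0. Scaling brought the arrays of each genotype together, at -2.97, -2.87 and -2.90 in ckg, against -2.77 and -2.77 in Col-0. On this scale both groups were narrow, and the ckg arrays lay just below Col-0. The raw median intensities did not group in this way, at 336, 356 and 494 in ckg and 383 and 337 in Col-0. The highest, on ckg replicate 3, lay beside a local background of 72, against 29 to 32 on the other arrays. The part of that background in the AHP5 values was not tested. The difference was -0.14 ± 0.10 (log2, SE; limma adjusted p = 0.480), or 0.906-fold with a 95% interval of 0.762 to 1.08-fold. With normexp the difference was -0.04.

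AHP4 and AHP6 were too dim to be tested. AHP4, which has a small and partly opposite role in cytokinin response compared with AHP1, AHP2, AHP3 and AHP5, read 122, 81.9 and 51.9 in ckg, against 29.3 and 35.8 in Col-0. It was well above background on 2 of 3 ckg arrays and on 1 of 2 Col-0 arrays, replicate 2. All ckg arrays were higher than both Col-0 arrays, also in raw median intensity (172, 140 and 139 in ckg, 92.5 and 113 in Col-0), with local backgrounds of 31 to 33 in ckg and 33 to 36 in Col-0. The lowest processed signal of any spot on ckg replicate 3 was 31.0, already above the 29.3 of AHP4 on Col-0 replicate 1. Among the genes tested, 19.5% had every ckg array above every Col-0 array.

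The mean scaled level of AHP4 was -4.92 ± 0.55 in ckg (SD, n = 3) and -6.16 ± 0.37 in Col-0 (SD, n = 2), a difference of 1.24. When every gene was tested regardless of background, this difference had an unadjusted p of 0.0349 and an adjusted p of 0.471 in limma. Its size depended on which array was left out and on the setting. Among the fits without 1 array it was lowest, at 0.954, without ckg replicate 1 and highest without Col-0 replicate 2. It was 1.49 without ckg replicate 3 and 0.98 without Col-0 replicate 1. Without ckg replicate 3 or Col-0 replicate 1, AHP4 met the background criterion only because the array left out was a dim one. These differences are therefore given as values with no test. The difference was 0.39 with normexp and 0.19 in the authors' series table; both start from raw medians and differ from the processed signal in more than background subtraction.

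AHP6, the inhibitory member, marks and helps to specify protoxylem cells in the root. Its probe was above background on 0 of 3 ckg arrays and 0 of 2 Col-0 arrays. Processed signals were 3.69, 3.28 and 33.4 in ckg and 4.56 and 3.28 in Col-0, each close to the lowest signal on its array. The value of 33.4 came from ckg replicate 3, whose lowest spot signal was 31.0. The lowest signals of the remaining arrays were 2.68 to 4.01, and no fold is given. The raw median intensities of 86, 84 and 99 in ckg and 81 and 84 in Col-0 were likewise near one another.

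**Figure D2:**
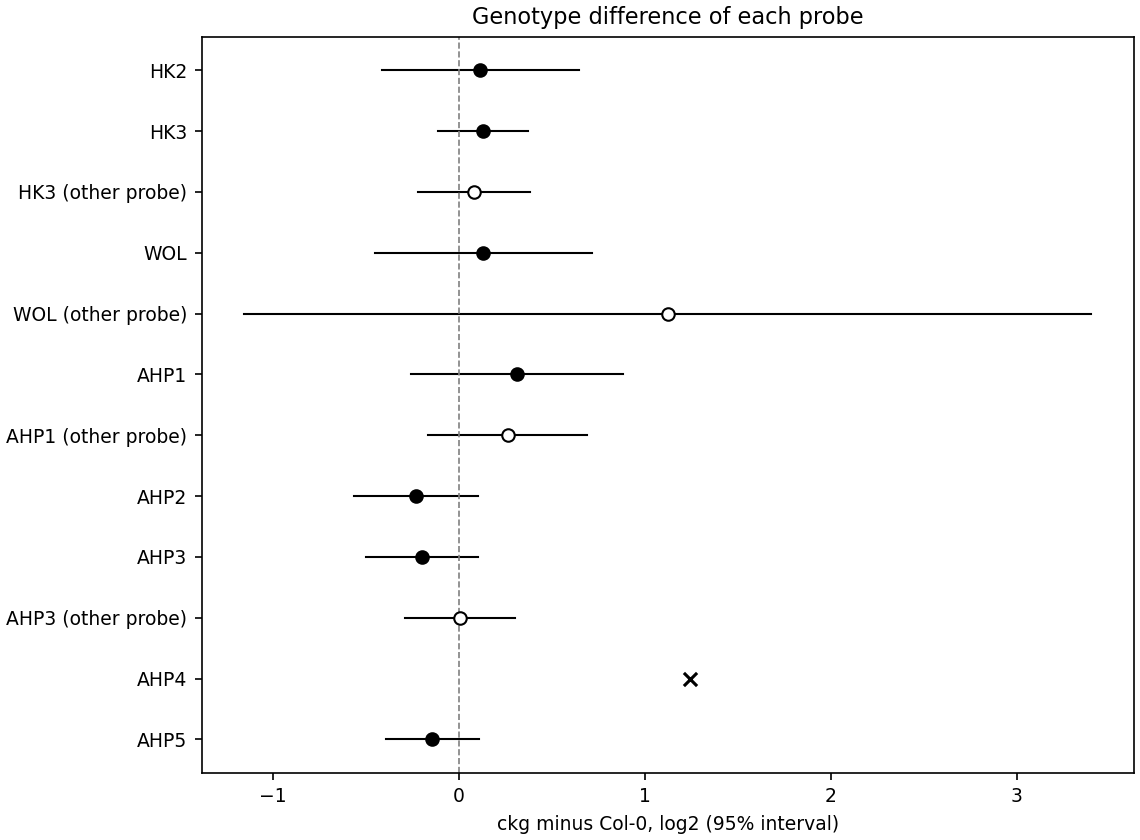
Difference between ckg and Col-0 (x axis, log2, ckg minus Col-0) for each probe of 8 genes, with 95% intervals from limma. Filled points are the probe used for the gene, open points its other probes fitted among all probes, and the cross is AHP4, shown with no interval; every interval includes 0, and the other WOL probe has the widest, -1.15 to 3.40.

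Across processing settings the small differences kept or lost their sign gene by gene. HK3, AHP1, AHP2 and AHP5 had the same sign as reported in all 15 alternatives of the gene's own fit, and in the other probe where HK3 and AHP1 had one. HK3 moved least, between 0.10 and 0.14 in those fits. HK2 and WOL turned negative without ckg replicate 3 and with replicate numbers as a block, which uses the same 4 arrays for the difference. AHP3 turned positive in the settings that start from raw median intensities. In no setting did one of the 7 tested genes pass an adjusted p of 0.05 in limma; the smallest was 0.130, for AHP2 with normexp.

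**Figure D3:**
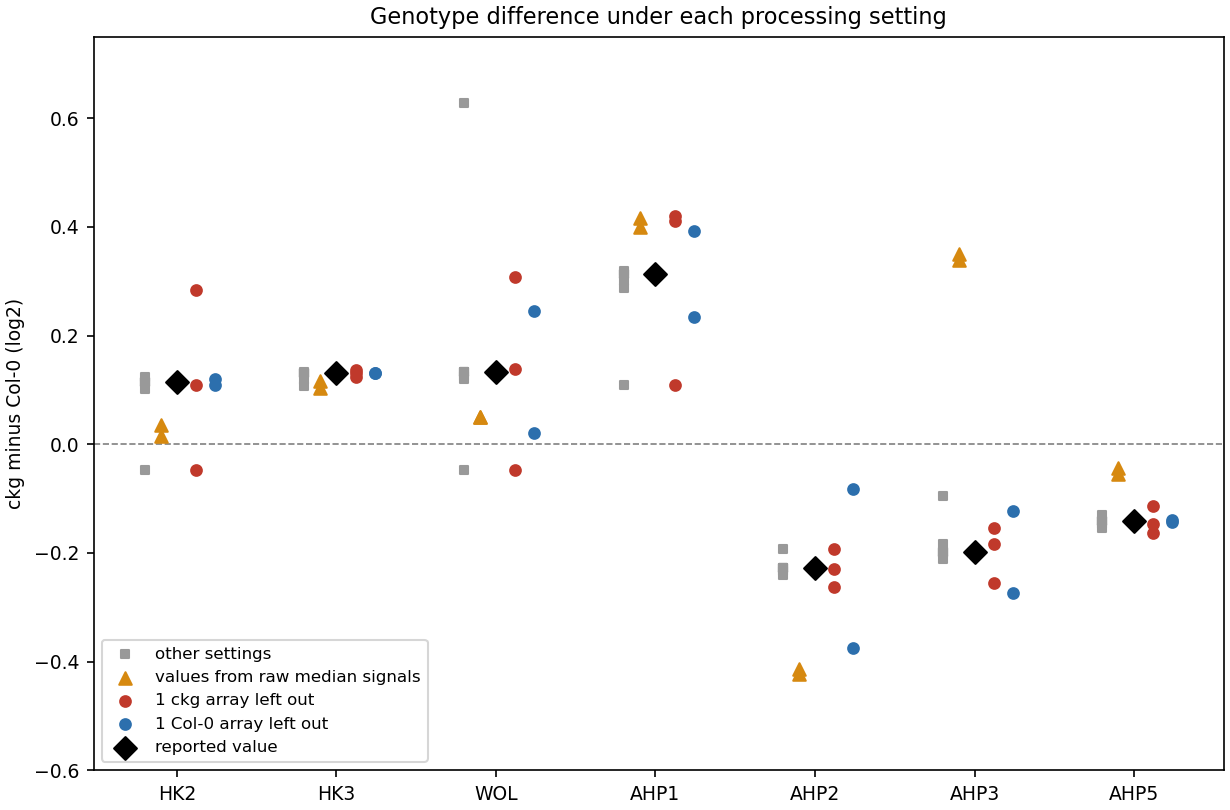
Difference between ckg and Col-0 (y axis, log2, ckg minus Col-0) of the 7 tested genes under each setting. Black diamonds are the reported values, triangles the settings from raw median signals, red and blue circles the fits without 1 ckg or 1 Col-0 array, and grey squares all others; AHP3 has its triangles at 0.35 and 0.34, above 0, and its reported value at -0.20.

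The genes on either side of these steps in the pathway were read from the same fit, in lists drawn up from general knowledge of the pathway with earlier results of these data known. Of 38 tested genes in 6 lists, 0 passed an adjusted p of 0.05 in limma, as did 0 of all 18122 genes tested (0%). An unadjusted p under 0.05 was found for 6 (15.8%), 4 higher and 2 lower in ckg. Over all genes tested the share was 18.1%, with 8.3% higher and 9.81% lower. The median difference of the 38 genes was 0.00048, with 19 higher and 19 lower. Among other histidine kinases, which share the phosphorelay chemistry but do not bind cytokinin, all 3 tested genes lay above Col-0 on every ckg array, as did 19.5% of all genes. For ETR1, an ethylene receptor, that held for the probe used (0.15 ± 0.11, log2, SE). Of its other probes, 1 overlapped (-0.02) and 1 was below Col-0 on every ckg array (-0.34). ERS1, also an ethylene receptor, differed by 0.43 ± 0.21 (log2, SE; limma adjusted p = 0.348) and AHK1, a kinase linked to osmotic stress, by 0.20 ± 0.11 (limma adjusted p = 0.391). CKI1 and CKI2 were above background on no array.

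Downstream, the type-B response regulators that receive the phosphate from the phosphotransfer proteins had a median difference of -0.01. Of 6 tested, 0 had an unadjusted p under 0.05, and the differences ran from -0.27 to 0.03. ARR10 was at -0.27 ± 0.14 (log2, SE) and ARR14 at -0.20 ± 0.16. Of the type-A regulators, 3 of 9 (33.3%) had an unadjusted p under 0.05, 2 higher and 1 lower in ckg, where 18.1% of all genes did. Over the 9 tested type-A genes the median difference was -0.10, with 3 higher and 6 lower in ckg. The sign of this median depended on single arrays. It was 0.014 without Col-0 replicate 1, 0.086 without ckg replicate 2 and -0.48 without Col-0 replicate 2. The 3 genes with an unadjusted p under 0.05 were picked by that p, which favours large differences. Their sizes are therefore not set against those of the receptors and phosphotransfer genes. Of these, ARR17 was at 1.11 ± 0.17 and ARR16 at 0.92 ± 0.16 (log2, SE). ARR8 was at -0.75 ± 0.14, and the limma adjusted p of the 3 genes was 0.104, 0.115 and 0.131. The 5 tested cytokinin response factors, transcription factors of a side branch, had 0 at an unadjusted p under 0.05, with CRF5 at 0.16 ± 0.17 and CRF6 at -0.15 ± 0.22.

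Upstream, 2 of 11 tested metabolism genes (18.2%) had an unadjusted p under 0.05, about the share of all genes (18.1%). IPT2, an enzyme that modifies transfer RNA and feeds cis-zeatin synthesis, was at -0.38 ± 0.10 (log2, SE; limma adjusted p = 0.183). LOG1, which releases active cytokinin from its nucleotide, was at 0.92 ± 0.31 (limma adjusted p = 0.223). The Col-0 arrays lay 0.92 apart for LOG1, as far as its difference. Of 4 transporters, 1 (25%) had an unadjusted p under 0.05, namely PUP1, a purine permease, at 0.51 ± 0.18 (limma adjusted p = 0.250). ABCG14, which loads cytokinin for transport from root to shoot, was at 0.31 ± 0.19.

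**Figure D4:**
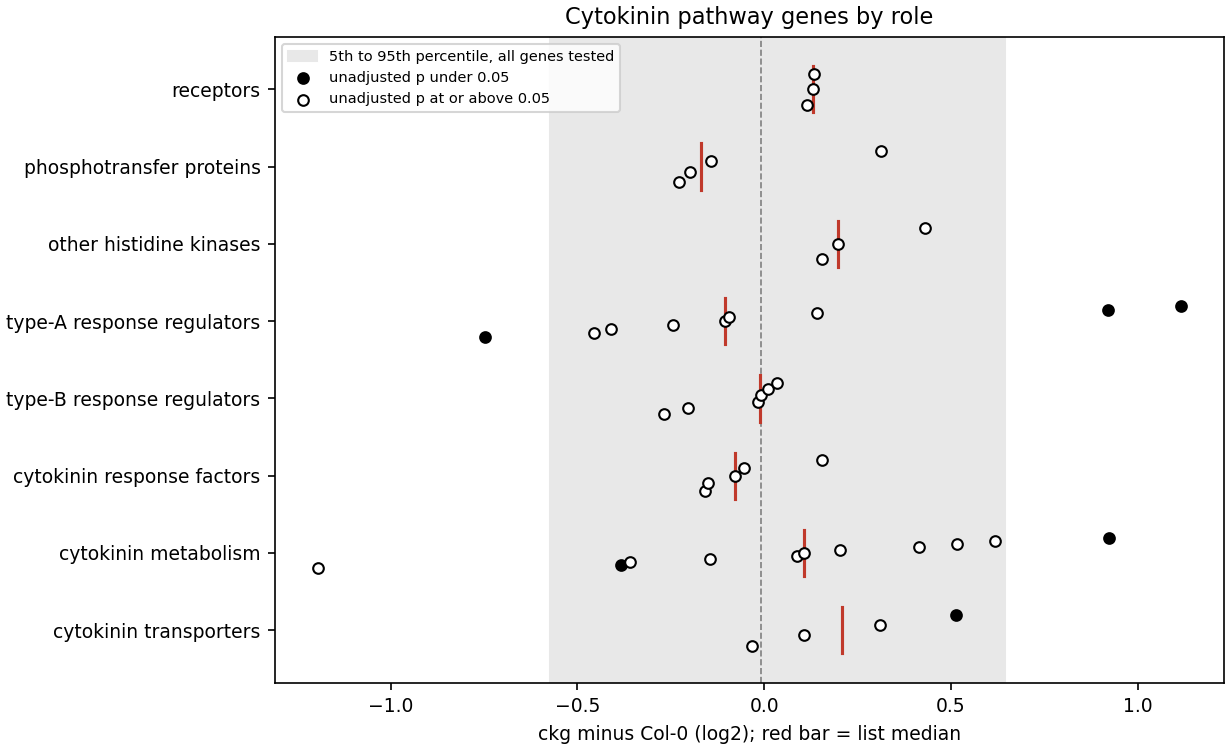
Difference between ckg and Col-0 (x axis, log2, ckg minus Col-0) of each tested gene in 8 lists of the cytokinin pathway, from the receptors at the top to transporters at the bottom. Filled points have an unadjusted p under 0.05, red bars are list medians and the grey band spans the 5th to 95th percentile of all genes tested (-0.57 to 0.64); the 7 receptor and phosphotransfer genes all lie inside the band.

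As a description of the 5 arrays, each of the 7 genes was paired with the gene most like it in scaled level among the other 40 genes of these lists above background on all arrays. AHP3 was most like AHP5 (Pearson coefficient 0.89 over 5 arrays), and HK2 most like AHP1 (0.80). HK3 was most like ARR16 (0.92), WOL like CKX5 (0.96), AHP5 like IPT2 (0.98), AHP1 like CKX7 (0.89) and AHP2 like ARR10 (0.86). The arrays are few, share slides by genotype and include ckg replicate 3, and each coefficient is the highest of 40.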

How the data were processed

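Transcripts were measured on 5 Agilent arrays labelled with Cy3 alone, 3 of ckg and 2 of Col-0, grouped by the labels. Per the file headers, the authors extracted spot values using Feature Extraction 10.7.1.1 by Agilent. The processed intensity deposited in those files is background-subtracted and not scaled between arrays; dim spots hold a small positive value. Raw median intensities of spot and local background, and flags of 0 or 1 for background, saturation and outliers, are other values deposited there, per the file headers. The authors' deposited series table holds log2 levels with the scale and normalization unstated: on every array they ranked as the raw medians did (Spearman coefficient 1) and each column's median was 8.41. No array had a saturated spot (0 non-control spots).

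The log2 processed intensity minus the array's 75th percentile over non-control spots was analysed without outlier spots (35 to 197 per array). Probe accessions were matched without versions to the TAIR10.1 gene table (34358 of 43603 probes matched, 9245 did not), used for names only. A gene with several probes (6940 of 25433) was represented by its brightest. The 18122 genes that were well above background throughout 1 or both groups were tested in R 4.3.3 by limma 3.58.1 (lmFit and eBayes, two-sided), adjusted after Benjamini and Hochberg at a threshold of 0.05. Precision is limited by the number of arrays, which leaves 3 residual degrees of freedom. The fit was tested on simulated data. A lower bound on a fold takes, on each array where a gene is dim, its own signal or, if higher, the dimmest one that was well above background there.

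Named genes were the 9 members, CKG, the 2 genes with the smallest p in each pathway list, the marker genes above background on all arrays or none (counted where many), and for each tested member its most similar pathway gene. ARR8, ETR1, CKI1, CKI2, MYB46, VND6, VND7, COBL9, CASP1 and CASP2 were named after their values were seen. The members and lists were chosen with earlier results of these data known. Alternatives changed background correction, scaling, filter, probe, outlier spots, variance trend, block and arrays, or used the series table. The array's genome build differs in name from the gene table's, so no coordinates are given, and no sequences were used here.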

Additional observations from a re-analysis of the deposited data

How the results depend on the processing

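In the fit over all genes, 0 genes passed an adjusted p of 0.05. The count was 3 with normexp, 1 with median scaling, 3 with the series table, 3 with an intensity trend and 130 at a threshold of 0.1. Leaving out 1 array gave 0 to 3, with the 3 coming without ckg replicate 3. CKG passed with normexp (-3.56) and the series table (-3.38), and leaving out 1 array gave it -6.75 to -5.18. It was dim on every ckg array, so these fitted differences are no measured sizes; the bound is 29.6-fold. Of the receptor and phosphotransfer genes, 0 had an unadjusted p under 0.05, and 1 did with normexp (AHP2), the series table (AHP2) and no filter (AHP4), where 19.9%, 17.5% and 10.2% of all genes did. That count was 0 to 1 when 1 array was left out, the 1 being AHP4 without ckg replicate 3, when it entered the test only through ckg, where it was higher. The sign turned for AHP3 with normexp (0.35), the series table (0.34) and its other probe (0.0068). It turned for HK2 (-0.047) and WOL (-0.048) without ckg replicate 3, and to the same values with the replicate block. Leaving out 1 array gave HK2 -0.047 to 0.28 and WOL -0.048 to 0.31. The cause of these turns was not tested. The replicate block moved the pathway genes at an unadjusted p under 0.05 to 10, against 6, and leaving out 1 array gave 5 to 8.

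No shared handling of same-numbered arrays of ckg and Col-0 is stated in the sources used here. Their deviations from the group means correlated at -0.09 and -0.10 across genes. These values cannot show whether handling was shared, because the deviations of the Col-0 arrays mirror each other. A fit without a Col-0 array leaves 1, assumed to vary like the ckg arrays. Normexp used raw median signals, since the files have no mean signal, and the mean of probes took those passing the filter; both were chosen after the files were seen, as were the fits of other probes and the AHP4 value without a test. Genes near background, AHP4 and AHP6 here, are limited by signal over background, most on ckg replicate 3.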
